A study of Mus musculus with 12 samples.

Results

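The genes described here are 34 genes of mitochondrial and peroxisomal fatty acid oxidation, chosen by name from the 34986 genes of the deposited table, and all 34 passed the filter on low values. They comprise the receptor Ppara and 4 genes listed under fatty acid uptake and activation (Acsl1, Slc27a2, Fabp1 and Vnn1). Vnn1 encodes pantetheinase and is only listed with that class. There are also 15 enzymes of the mitochondrial matrix and inner membrane and 2 enzymes found in both organelles (Acad11 and Eci2). The rest are 9 peroxisomal enzymes and 3 genes of the peroxisomal membrane (Abcd2, Abcd3 and Pex11a). Levels of all 34 genes were measured by RNA sequencing of the livers of female C57BL/6 mice aged 16 weeks. The VPA_OCA group (6 mice) received valproic acid, a drug against epilepsy with known liver toxicity, together with obeticholic acid, an agonist of the bile acid receptor FXR; the VPA group (6 mice) received valproic acid alone. Both groups therefore carry the valproic acid exposure, mice without it are not analysed here, and the doses and durations are not given in the labels used here.

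Fatty acid oxidation shortens acyl-CoA chains by repeated dehydrogenation, hydration, a further dehydrogenation and thiolytic cleavage. Mitochondria oxidise most long-, medium- and short-chain fatty acids and pass the electrons to the respiratory chain, whereas peroxisomes start on very-long-chain and branched substrates and hand shortened chains on. In the liver, PPARα, the fatty acid receptor encoded by Ppara, acts with RXR at direct-repeat DNA elements and drives many genes of both routes during fasting. Valproic acid is itself a branched fatty acid that is in part oxidised in mitochondria.

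The question the comparison addresses is how adding obeticholic acid to valproic acid changed the expression of these genes. None of the 34 genes passed an adjusted p of 0.05 in either direction (limma, Benjamini-Hochberg adjustment over 19006 genes), where the background was 0.279% of all genes lower and 0.442% higher in VPA_OCA livers. At an unadjusted limma p under 0.05, Pex11a, Vnn1, Hadhb, Hadha, Etfdh and Eci2 were on the lower side (17.6% of the genes, against 4.25% of all genes). Eci3 was on the higher side (2.94%, against 5.3% of all genes). The genes were chosen with earlier results of these data known, and many varied together across livers. Shares of the 34 genes are therefore description and not a test of the pathway. By the adjusted p of the authors' deposited table, 3 of the genes were lower, namely Pex11a (0.00016), Vnn1 (0.0149) and Hadhb (0.0258), and the background in that table was 2.23% of 12517 genes lower and 3.34% higher. The peroxisome proliferation gene Pex11a was the 1 gene that passed when the 2 sets of replicate numbers described below were a term of the limma model, with an adjusted p of 0.0028, at 35.8% less in VPA_OCA livers. The background of that fit was 0.789% of all genes lower and 1.34% higher. At an unadjusted p under 0.05 in that fit, 6 of the 34 genes were on the lower side and 2, Decr2 and Eci3, on the higher side, with backgrounds of 6.68% and 7.78%. Fitted alone, replicates 4 to 6 gave 1 lower gene, again Pex11a (limma background 0.153% lower and 0.347% higher), and replicates 1 to 3 gave none (background 0.253% lower and 0.384% higher).

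Some properties of the libraries touch these results. Estimated reads per library ranged from 17879222 (VPA replicate 3) to 37699449 (VPA_OCA replicate 1), and the hepatocyte markers of the list used were abundant in every library, their summed normalized count lying between 1936500 and 3146500 in VPA_OCA livers and between 2171500 and 3126200 in VPA livers. Within each group the libraries numbered 1 to 3 stood apart from those numbered 4 to 6: 15.9% of all genes in VPA_OCA livers and 15.1% in VPA livers had lower values in every library of the second set than in any of the first. The share of mitochondrially encoded transcripts differed in the same way, at 9.09% to 10.7% in VPA_OCA replicates 1 to 3 and 10.4% to 11.7% in VPA replicates 1 to 3, but 7.12% to 7.51% in VPA_OCA replicates 4 to 6 and 5.84% to 7.21% in VPA replicates 4 to 6. The labels name no batch that explains these sets, which were recognised in the data. Normalized counts of 12 skeletal muscle markers, 6 of which passed the filter, summed to 640 in VPA replicate 4 and 192 in VPA replicate 5, against 23.4 to 60.2 in the other 10 libraries. The muscle actin Acta1 had 164.2 and 24.95 normalized counts in those livers of the VPA group. Myh2 and Myh4 were at 0 in every library except VPA replicates 4 and 5. There Myh2 had 6.206 and 8.123 and Myh4 had 4.03 and 2.078 normalized counts. In whole liver, fewer cells of a type and less RNA per cell cannot be told apart.

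Pex11a, Hadhb and Fabp1 are shown here by the bases around their start sites, for 3 reasons: Pex11a passed the test in the fit with the number sets, Hadhb shares its promoter region with Hadha, and Fabp1 is the gene whose window matched a PPARα-type element. The windows are those of RefSeq on GRCm38.p6 and run from 250 bases before the start to 50 bases after it. In the set of windows searched, a window was matched for 29 of the 34 genes. Abcd2, Acaa2, Decr1, Hsd17b4 and Vnn1 had none in that set, which does not mean that RefSeq holds none for them. Shares given below for all windows refer to the set searched, which does not cover every gene. The Pex11a window lies at chr7:79743082-79743381 on the minus strand and has no capitals because no searched motif was found in it.
Pex11a: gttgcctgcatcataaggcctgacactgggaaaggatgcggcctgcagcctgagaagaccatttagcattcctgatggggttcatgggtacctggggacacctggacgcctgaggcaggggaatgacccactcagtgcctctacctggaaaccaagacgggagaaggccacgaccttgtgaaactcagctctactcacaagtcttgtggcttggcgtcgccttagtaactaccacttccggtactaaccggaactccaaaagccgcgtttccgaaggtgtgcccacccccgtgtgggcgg

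The Hadhb window lies at chr5:30155003-30155302 on the plus strand. Hadha and Hadhb, which encode the α and β subunits of the mitochondrial trifunctional protein, are transcribed away from each other, and their RefSeq start sites are 273 bases apart. The capitals mark the 228 bases that are also part of the Hadha window.
Hadhb: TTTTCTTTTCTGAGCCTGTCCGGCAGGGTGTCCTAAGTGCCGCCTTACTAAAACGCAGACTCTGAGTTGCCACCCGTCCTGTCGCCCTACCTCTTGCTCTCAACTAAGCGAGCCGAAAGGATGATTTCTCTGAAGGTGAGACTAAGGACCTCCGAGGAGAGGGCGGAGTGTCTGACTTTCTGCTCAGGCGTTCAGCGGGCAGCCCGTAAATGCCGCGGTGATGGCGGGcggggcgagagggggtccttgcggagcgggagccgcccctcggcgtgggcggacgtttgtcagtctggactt

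The Fabp1 window lies at chr6:71199629-71199928 on the plus strand. The capitals mark the bases that match, on the opposite strand, the relaxed direct repeat AGGNCANAGGNCA.
Fabp1: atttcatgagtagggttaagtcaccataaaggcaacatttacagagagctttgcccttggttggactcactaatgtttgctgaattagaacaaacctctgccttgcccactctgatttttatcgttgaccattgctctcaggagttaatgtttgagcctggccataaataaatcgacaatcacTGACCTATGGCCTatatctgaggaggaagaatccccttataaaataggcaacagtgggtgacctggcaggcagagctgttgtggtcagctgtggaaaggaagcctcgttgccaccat

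The motif search covered both strands, and a match describes letters only. The exact direct repeat AGGTCANAGGTCA, the canonical PPAR-RXR element, was in none of the windows of the 29 genes and in 0.0396% of all 32851 windows searched. The relaxed form AGGNCANAGGNCA was in the window of Fabp1 alone among these genes and in 0.381% of all windows. The inverted repeat AGGTCANTGACCT, the canonical FXR-RXR element, was in none of these genes' windows and in 0.00913% of all windows. The half-site AGGTCA, which is contained in both exact elements, was in the windows of 7 of the 29 genes (24.1%: Acadm, Acadvl, Echs1, Fabp1, Phyh, Scp2 and Slc27a2) and in 16.3% of all windows.

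Among the receptor and the genes listed under uptake and activation, Vnn1 had the largest difference. Vnn1 (ENSMUSG00000037440, chr10:23894688-23905343) encodes pantetheinase, which releases cysteamine and vitamin B5 from pantetheine and is a PPARα target in mouse liver. Its normalized count had a minimum of 1157, a median of 1542.5 and a maximum of 2264 in VPA_OCA livers, against 1479, 2647.5 and 4521 in VPA livers. The ranges overlapped because VPA replicates 4 and 6 lay within the VPA_OCA range. The log2 fold change was -0.65 ± 0.23 (SE; 95% interval -1.14 to -0.17; limma adjusted p = 0.31). It was -1.06 in the replicates numbered 1 to 3, where the groups did not overlap, and -0.24 in those numbered 4 to 6, a difference of 0.82 with a limma adjusted p of 0.56. With the number sets as a term the limma adjusted p was 0.11, and without VPA replicate 4, the library with the highest muscle marker sum, it was 0.044 at a log2 fold change of -0.78. Over all left-out libraries that log2 fold change ran from -0.78 to -0.50 and the limma adjusted p from 0.044 to 0.22, the highest p being without VPA replicate 1. VPA replicate 5, the library with the next highest muscle marker sum, had 2487 normalized counts of Vnn1.

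Ppara (ENSMUSG00000022383, chr15:85734983-85802819) had a normalized count of 1801 ± 307 in VPA_OCA livers and 1878 ± 238 in VPA livers (SD, n = 6 each), with overlapping ranges of 1374 to 2075 in VPA_OCA livers and 1587 to 2276 in VPA livers. Its log2 fold change was -0.07 ± 0.12 (SE), and its 95% interval ran from -0.33 to 0.19. Any difference in the receptor's transcript lay within this spread. Fabp1, the liver fatty acid binding protein and the most abundant of these genes per length, averaged 8528 FPKM in VPA_OCA livers and 8807 FPKM in VPA livers, and its normalized count lay between 66930 and 141300 in VPA_OCA livers and between 72290 and 163500 in VPA livers. Libraries of each group differed widely for Fabp1, whose log2 fold change was -0.04 with a 95% interval of -0.52 to 0.44. Acsl1, a long-chain acyl-CoA synthetase, had a log2 fold change of -0.15 ± 0.13, and Slc27a2, a transporter and very-long-chain acyl-CoA synthetase, one of -0.19 ± 0.17 (SE).

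**Figure D1:**
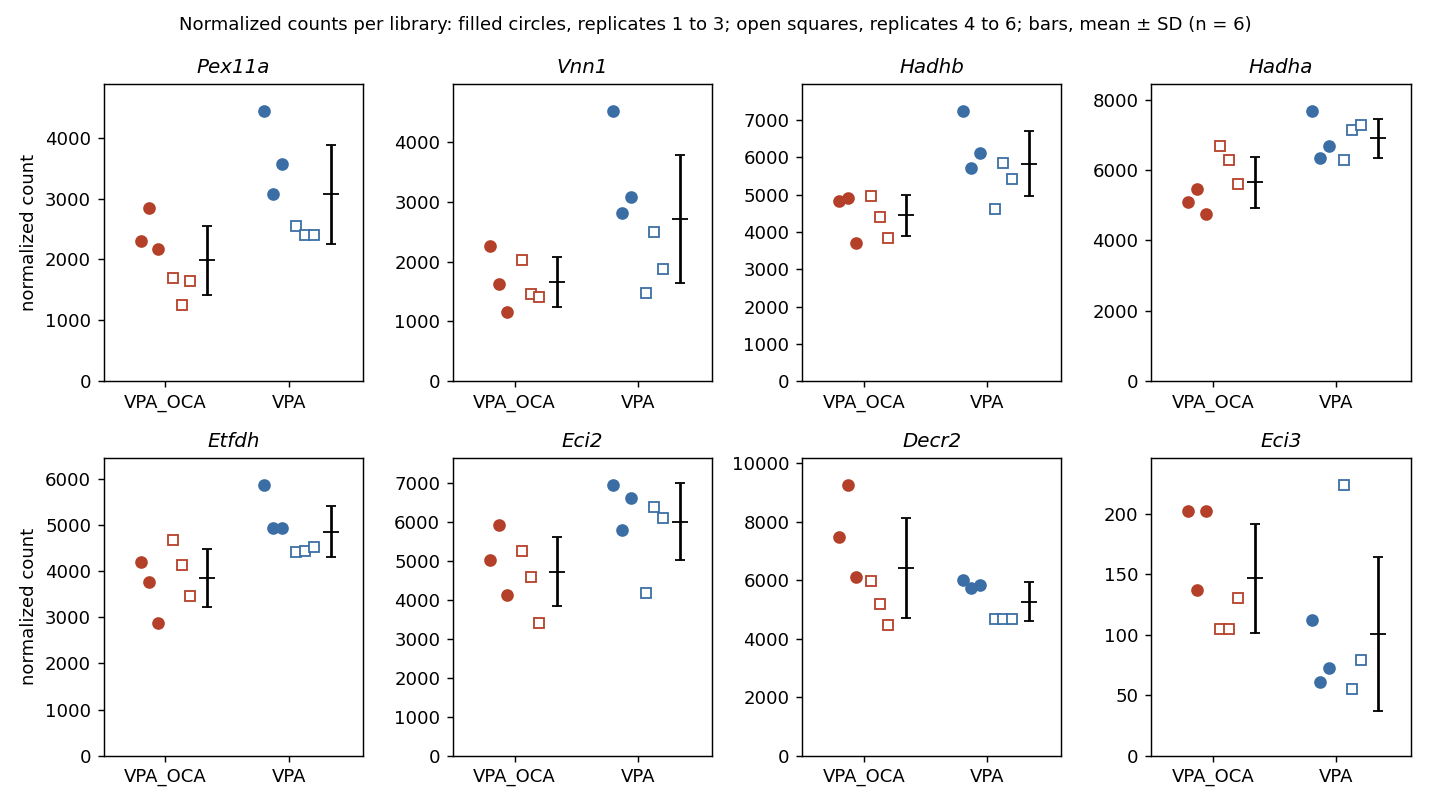
Normalized count per library (vertical axes, each starting at 0) of 8 genes in VPA_OCA livers (left, red) and VPA livers (right, blue); filled circles are replicates 1 to 3, open squares replicates 4 to 6, and bars give the mean ± SD of 6 livers. For Pex11a the red points lie below the blue points of the same symbol, although the 2 groups overlap when symbols are ignored.

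Among the 15 mitochondrial enzymes, 12 had a log2 fold change below 0, with a median of -0.15. Over all 34 genes, 25 were below 0, with a median of -0.10. Of all genes tested, 50.1% were below 0 and 49.9% above, with a median of -0.00. Because many of the 34 genes varied together, they are not separate observations. Hadhb, Etfdh and Hadha had the lowest values; Hadha and Hadhb form the trifunctional protein, which carries out the last 3 steps on long chains. Hadhb (ENSMUSG00000059447, chr5:30155248-30184593), the thiolase subunit, had a minimum of 3718, a median of 4620.5 and a maximum of 4958 normalized counts in VPA_OCA livers, against 4613, 5788.5 and 7255 in VPA livers. Only VPA replicate 4, at 4613, reached into the VPA_OCA range. Its log2 fold change was -0.39 ± 0.12 (SE; 95% interval -0.63 to -0.14; limma adjusted p = 0.19, and 0.066 with the number sets as a term). That last limma adjusted p became 0.033 without VPA replicate 4 and 0.041 without VPA_OCA replicate 4, and reached 0.14 without VPA replicate 1. Over all left-out libraries the log2 fold change with the term ran from -0.45 to -0.32.

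Hadha (ENSMUSG00000025745, chr5:30118304-30155162), the subunit with hydratase and 3-hydroxyacyl-CoA dehydrogenase activity, had a minimum of 4761, a median of 5530 and a maximum of 6689 normalized counts in VPA_OCA livers, against 6285, 6906 and 7687 in VPA livers. VPA_OCA replicate 4 and VPA replicates 2, 3 and 4 made the ranges overlap. Its log2 fold change was -0.29 ± 0.10 (SE; limma adjusted p = 0.28). Per length, Hadha averaged 167 FPKM in VPA_OCA livers and 203 FPKM in VPA livers, and Hadhb 141 FPKM in VPA_OCA livers and 184 FPKM in VPA livers.

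Etfdh (ENSMUSG00000027809, chr3:79603788-79629500) encodes the oxidoreductase that passes electrons from the electron transfer flavoprotein to ubiquinone. It had a minimum of 2872, a median of 3950 and a maximum of 4668 normalized counts in VPA_OCA livers, against 4424, 4731 and 5866 in VPA livers, so the ranges met through VPA_OCA replicate 4. On the log2 scale the difference was -0.34 ± 0.12 (SE; limma adjusted p = 0.28), at -0.55 in the replicates numbered 1 to 3 and -0.13 in those numbered 4 to 6. Etfa and Etfb, the subunits of the flavoprotein itself, both had log2 fold changes of -0.01, with SEs of 0.13 and 0.14; exons of a gene on the same strand cover 53% of the exonic bases of Etfb, so its reads cannot be assigned with certainty.

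The acyl-CoA dehydrogenases, which take the first step, were close together. Acadm, Acadl and Acadvl, for medium, long and very long chains, had log2 fold changes of -0.18 ± 0.15, -0.15 ± 0.10 and -0.15 ± 0.10 (SE), whereas Acads, for short chains, had 0.05 ± 0.09. Acadvl shares 42.9% of its exonic bases with Dvl2 on the opposite strand, and whether strand was used in counting is not known. Acad10 (ENSMUSG00000029456, chr5:121621026-121660514), a divergent member of the family, had a minimum of 659.6, a median of 768.05 and a maximum of 874.3 normalized counts in VPA_OCA livers, against 613.7, 734.45 and 754.8 in VPA livers. The groups overlapped, with a log2 fold change of 0.09 ± 0.09 (SE). That of Acad10 was 0.24 in the replicates numbered 1 to 3 and -0.07 in those numbered 4 to 6. Acaa2, the mitochondrial 3-ketoacyl-CoA thiolase, and Eci1, an enoyl-CoA isomerase, had values of -0.17 and -0.15, and Echs1, the short-chain hydratase, had 0.13 with an interval from -0.17 to 0.43. Neither Hadh, the medium- and short-chain hydroxyacyl-CoA dehydrogenase, nor Decr1, the mitochondrial dienoyl-CoA reductase, exceeded its spread, both at a log2 fold change of -0.07.

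Eci2 (ENSMUSG00000021417, chr13:34977748-35027096), an enoyl-CoA isomerase of both organelles, had a minimum of 3404, a median of 4789 and a maximum of 5916 normalized counts in VPA_OCA livers, against 4175, 6245.5 and 6939 in VPA livers, and the ranges overlapped widely; 7.19% of the 50-base stretches of its transcript occur in Eci3. Its log2 fold change was -0.35 ± 0.14 (SE; limma adjusted p = 0.44), with similar values of -0.38 and -0.33 in the replicates numbered 1 to 3 and 4 to 6. Eci2 and Vnn1 were picked out for their unadjusted p after their values were seen. Acad11, an acyl-CoA dehydrogenase of both organelles, had -0.18 ± 0.10 (SE).

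**Figure D2:**
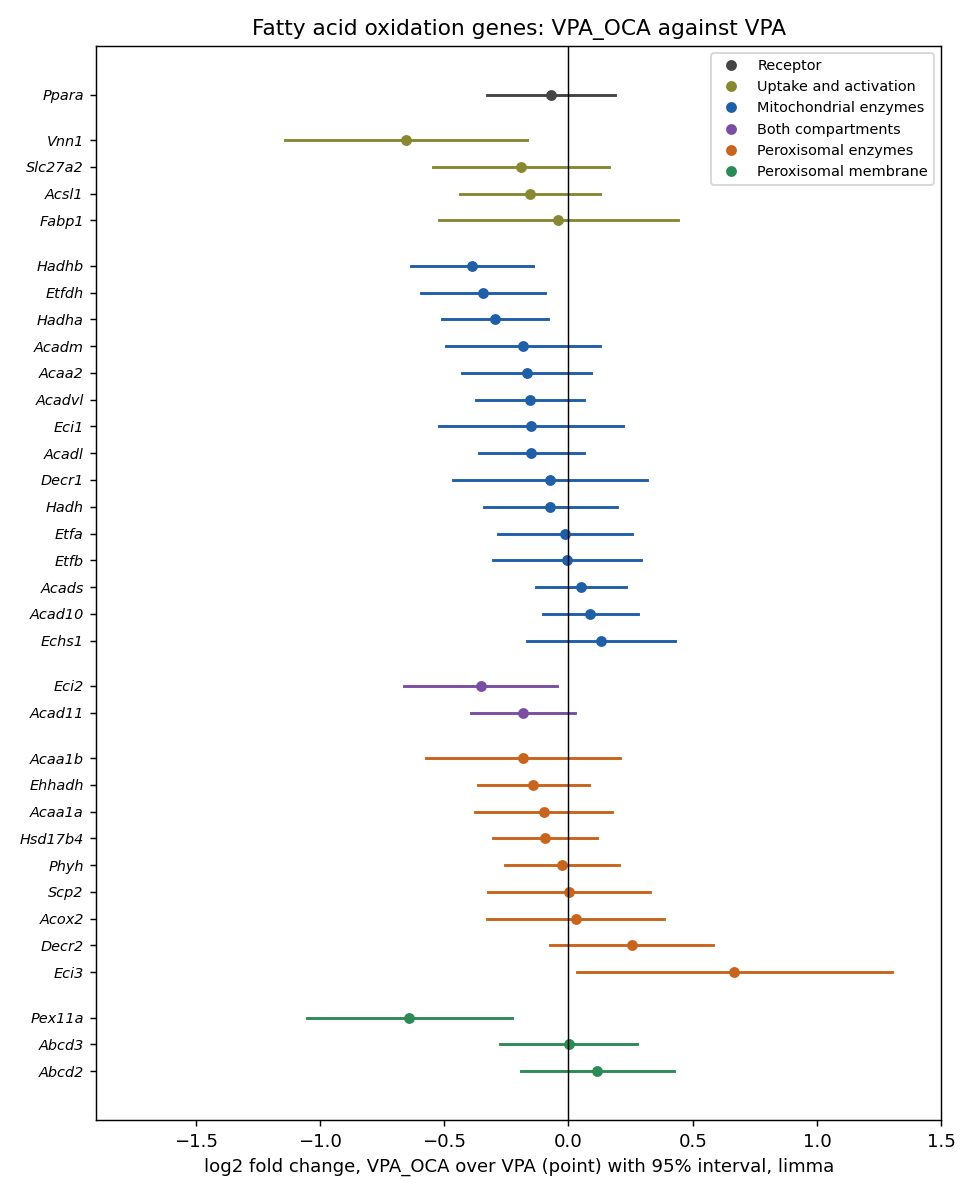
Log2 fold change of VPA_OCA over VPA (horizontal axis, points) with its 95% limma interval (lines) for the 34 genes, grouped by compartment and ordered by value within each. The mitochondrial enzymes lie mostly left of 0, the peroxisomal enzymes on both sides, and Vnn1, Pex11a and Eci3 lie farthest out.

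Among the 9 peroxisomal enzymes, 5 had a log2 fold change below 0 and the median was -0.03. Ehhadh (ENSMUSG00000022853, chr16:21761287-21787844), the bifunctional hydratase-dehydrogenase and a widely used PPARα target, had a minimum of 7953, a median of 8585 and a maximum of 9752 normalized counts in VPA_OCA livers, against 8176, 9428 and 12220 in VPA livers. The groups overlapped when the number sets were ignored, and VPA replicate 1, the highest, was well above the next VPA liver at 9580. In the replicates numbered 4 to 6, VPA_OCA livers were at 8811, 7953 and 8101, below VPA livers at 9580, 9293 and 9563. The log2 fold change there was -0.19 (limma adjusted p = 0.45), against -0.09 in those numbered 1 to 3. Ehhadh had a log2 fold change of -0.14 ± 0.10 (SE; limma adjusted p = 0.76), which was -0.071 without VPA replicate 1. Acaa1a and Acaa1b, the peroxisomal thiolases, had -0.10 ± 0.13 and -0.18 ± 0.18 (SE); 34% of the 50-base stretches of the Acaa1a transcript and 35.5% of those of Acaa1b are found in the other, so how reads were split between them is uncertain.

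Scp2, which encodes a peroxisomal thiolase and a lipid carrier, and Phyh, the first enzyme of phytanic acid breakdown, were the most abundant of the peroxisomal genes per length besides Acaa1b. Scp2 averaged 1725 FPKM in VPA_OCA livers and 1700 FPKM in VPA livers, and Phyh 971 FPKM in VPA_OCA livers and 979 FPKM in VPA livers. Their log2 fold changes of normalized counts were 0.00 ± 0.15 and -0.03 ± 0.11 (SE). Acox2, the oxidase of branched chains and bile acid precursors, had 0.03 ± 0.17, and Hsd17b4, the multifunctional enzyme of the same route, had -0.10 ± 0.10 (SE).

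Decr2 and Eci3 lay on the opposite side. Decr2 (ENSMUSG00000036775, chr17:26081211-26090329), the peroxisomal dienoyl-CoA reductase, had a minimum of 4470, a median of 6040 and a maximum of 9246 normalized counts in VPA_OCA livers, against 4654, 5194 and 6007 in VPA livers. All 3 VPA_OCA replicates numbered 1 to 3 exceeded the VPA maximum, while those numbered 4 to 6 overlapped the VPA range. Its log2 fold change was 0.25 ± 0.15 (SE; limma adjusted p = 0.68, and 0.24 with the number sets as a term), and 0.14 without VPA_OCA replicate 2.

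Eci3 (ENSMUSG00000021416, chr13:34946614-34963810), a mouse peroxisomal enoyl-CoA isomerase next to Eci2, was the least abundant gene, at 6.15 FPKM in VPA_OCA livers and 4.18 FPKM in VPA livers. Its normalized count had a minimum of 104.4, a median of 133.55 and a maximum of 202.6 in VPA_OCA livers, against 54.9, 75.61 and 223.8 in VPA livers. All VPA livers but 1 lay at or below 112, and VPA replicate 4, the library with the highest muscle marker sum, held the highest value of all 12. VPA replicate 5, with the next highest muscle marker sum, held the lowest, at 54.9. Eci3 had a log2 fold change of 0.67 ± 0.30 (SE; limma adjusted p = 0.50). With the number sets as a term the limma adjusted p was 0.30, and it was 0.0097 without VPA replicate 4, at a log2 fold change of 0.98. Leaving out any other single library gave no call, and the range over all of them was 0.53 to 0.98, with limma adjusted p from 0.0097 to 0.48. Of the 50-base stretches of the Eci3 transcript, 9.4% occur in Eci2, and 8.53% of its exonic bases overlap a gene on the opposite strand.

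Of the genes of the peroxisomal membrane, Pex11a had the lowest value. Pex11a (ENSMUSG00000030545, chr7:79735957-79743131) encodes a membrane protein that takes part in the elongation and division of peroxisomes and is induced by PPARα agonists in mouse liver. The normalized counts of VPA_OCA replicates 1 to 3 were 2308, 2848 and 2173, against 4444, 3080 and 3573 in the VPA replicates of those numbers. In replicates 4 to 6 they were 1691, 1260 and 1645 in VPA_OCA livers, against 2546, 2410 and 2396 in VPA livers. Within both sets every VPA_OCA liver was below every VPA liver, which was the case for no other of the 34 genes, and for 1.24% of all genes in this direction and 2.18% in the other. Over all 12 livers none of the 34 genes had groups without overlap (background 0.526% lower and 0.916% higher); for Pex11a VPA_OCA replicate 2 exceeded VPA replicates 4 to 6, and VPA_OCA replicate 1 stayed below them.

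Pex11a averaged 1988 ± 568 normalized counts in VPA_OCA livers and 3075 ± 813 in VPA livers (SD, n = 6 each), and 73.3 FPKM in VPA_OCA livers and 113 FPKM in VPA livers. This gave a log2 fold change of -0.64 ± 0.19 (SE; 95% interval -1.05 to -0.23; limma adjusted p = 0.20). With the number sets as a term the interval was -0.86 to -0.42 and the limma adjusted p was 0.0028. The values within the sets were similar, at -0.59 for numbers 1 to 3 and -0.69 for numbers 4 to 6, a difference of -0.10 (limma adjusted p = 0.93). When any 1 library was left out of the fit with this term, the log2 fold change stayed between -0.70 and -0.58 and the limma adjusted p between 0.0014 and 0.0088.

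Abcd2 and Abcd3, the transporters that import very-long-chain and branched acyl-CoA into peroxisomes, had log2 fold changes of 0.12 ± 0.15 and 0.00 ± 0.13 (SE). Abcd2 averaged 15.6 FPKM in VPA_OCA livers and 14.5 FPKM in VPA livers, far below Abcd3 at 253 FPKM in VPA_OCA livers and 255 FPKM in VPA livers. That of Abcd2 was -0.14 in the replicates numbered 1 to 3 and 0.38 in those numbered 4 to 6, a difference of 0.52 on the log2 scale (limma adjusted p = 0.52). No gene of the 34 passed the test of a difference between the number sets (limma, 0.0105% of all genes passed), and at an unadjusted p under 0.05 there were 2, Abcd2 and Vnn1, where the background was 8.36%.

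The mitochondrial and peroxisomal enzymes were then set side by side within each library, as the mean log2 deviation of each class from its mean over the 12 livers. The mitochondrial mean minus the peroxisomal mean was -0.16, 0.01, -0.20, -0.06, -0.02 and -0.06 in VPA_OCA replicates 1 to 6, against 0.16, 0.13, 0.18, -0.15, 0.07 and 0.09 in VPA replicates 1 to 6. All VPA livers except replicate 4, which lay within the VPA_OCA range, were above all 6 VPA_OCA livers. The peroxisomal mean gave Eci3, the gene with the lowest counts, the same weight as each other enzyme. Its low count in VPA replicate 5 (54.9) raised the difference there, and its high count in VPA replicate 4 (223.8) lowered it. How far the separation of the livers depends on Eci3 was not tested. This is a description without a test, because the classes were chosen with earlier results known.

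The number sets differed within each group as well. The median log2 difference of replicates 4 to 6 minus replicates 1 to 3 was -0.20 for the mitochondrial enzymes in VPA_OCA livers and -0.27 in VPA livers, against medians of -0.02 and -0.01 over all genes. For the peroxisomal enzymes it was -0.16 in VPA_OCA livers, with 8 of 9 below 0, and -0.11 in VPA livers, with 6 of 9 below 0. In VPA_OCA livers 6 of the 34 genes (17.6%) had lower values in every library of the second set, near the 15.9% of all genes. In VPA livers 12 of the 34 genes (35.3%) did, against 15.1% of all genes. Single libraries stood at the ends for many genes at once. VPA_OCA replicate 2 was the highest of its group for 19 genes and VPA_OCA replicate 6 the lowest for 17, while VPA replicate 1 was the highest of its group for 26 genes and VPA replicate 4 the lowest for 23.

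**Figure D3:**
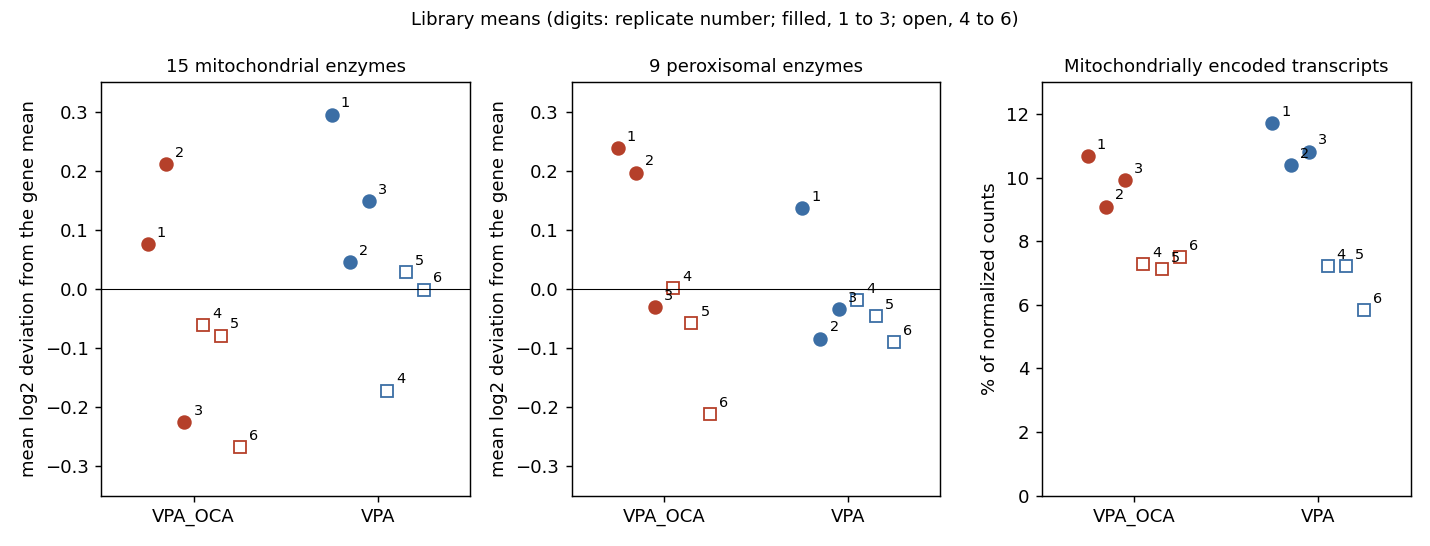
Mean log2 deviation from the gene mean of the 15 mitochondrial enzymes (left) and the 9 peroxisomal enzymes (middle), and mitochondrially encoded transcripts as % of normalized counts (right), per liver; VPA_OCA in red, VPA in blue, filled circles replicates 1 to 3, open squares replicates 4 to 6, digits the replicate number. VPA_OCA replicates 3 and 6 are the lowest for the mitochondrial enzymes, at -0.23 and -0.27, and the mitochondrially encoded share separates the number sets in both groups.

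Covariation across the 12 livers was described from deviations around the mean of each group and number set, so that neither the treatment nor the set contributes. The median Pearson r was 0.75 over the 105 pairs of mitochondrial enzymes, 0.30 over the 36 pairs of peroxisomal enzymes and 0.62 over the 135 pairs between these classes, against 0.00 over all pairs of tested genes. These pairs share libraries and depth. The pairs of all tested genes include many genes of low counts, and pairs of other genes as abundant as these were not compared. Whether the covariation is particular to this pathway was therefore not tested. Acadvl (0.86) had the highest median r with the mitochondrial enzymes, and the peroxisomal gene Scp2 was next to it at 0.85, beside Acadm, Hadh and Acaa2 at 0.85. Acad10 (-0.34), Eci3 (-0.33), Ppara (-0.12), Acox2 (0.03) and Ehhadh (0.13) were the genes that followed them least. Within the peroxisomal class, Ehhadh and Acox2 had an r of -0.88, a pair picked out after its value was seen.

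**Figure D4:**
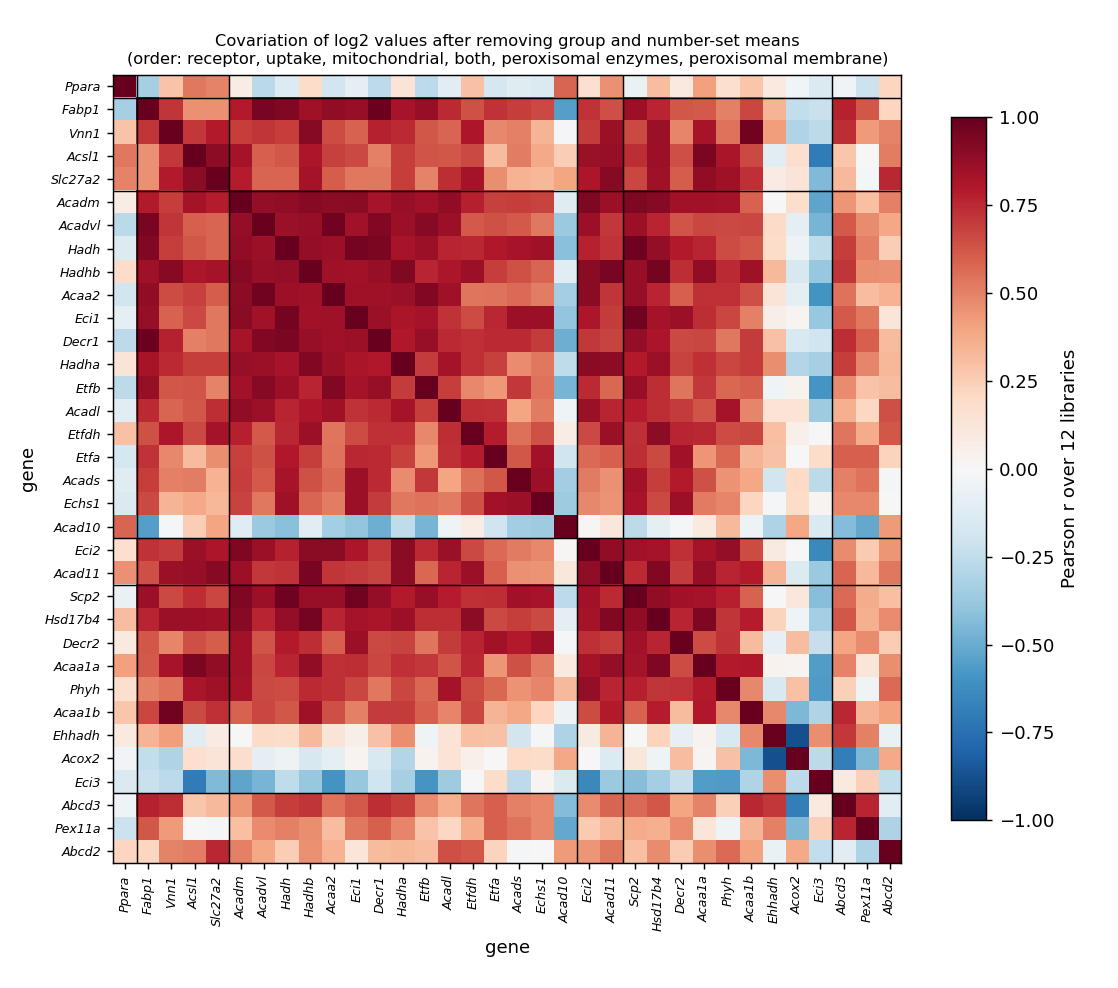
Pearson r between the 34 genes over 12 livers, from deviations around the mean of each group and number set; colours run from negative to positive r, and rows and columns are grouped by compartment. The mitochondrial block is mostly positive, while Acad10, Eci3, Ppara, Acox2 and Ehhadh form pale or blue stripes.

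A known relation links 6 pairs, which were tested by exact permutation within the 4 sets of 3 livers (1296 arrangements, 2-sided, adjusted over the 6 pairs). Hadha and Hadhb, the trifunctional protein subunits with adjoining promoters shown above, had r = 0.93 (exact p = 0.0023, adjusted 0.014) and rho = 0.90 (exact p = 0.0023, adjusted 0.014), and r was 0.91 without the 2 livers farthest from the median of Hadha. Acaa1a and Acaa1b had r = 0.80 (exact p = 0.0085, adjusted 0.025) and rho = 0.83 (exact p = 0.0062, adjusted 0.019), with r = 0.81 without the 2 farthest livers; the adjusted p of this pair reached 0.13 when VPA replicate 5 was left out, at r = 0.70. How far reads shared by these paralogs enter their r was not tested. The permutation asks only whether a pair varies together at all, and high values were not particular to these pairs. Of the 105 pairs of mitochondrial enzymes, 46 had an r over 0.8. Hadhb had r = 0.957 with Hsd17b4 and 0.946 with Acad11, and Acaa1a had r = 0.945 with Acsl1.

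The other 4 pairs did not pass. Etfa and Etfb had r = 0.43 (exact p = 0.27, adjusted 0.54) and rho = 0.41 (exact p = 0.31, adjusted 0.52), and r was 0.081 without the 2 farthest livers. Ppara and Vnn1 had r = 0.29 (exact p = 0.40, adjusted 0.59) and rho = 0.24 (exact p = 0.48, adjusted 0.57), with 0.37 without the 2 farthest. Ppara and Ehhadh had r = 0.095 (exact p = 0.87, adjusted 0.99) and rho = 0.38 (exact p = 0.34, adjusted 0.52), with 0.45 without the 2 farthest. Acadm and Ehhadh, an enzyme of each route, had r = 0.0031 (exact p = 0.99, adjusted 0.99) and rho = -0.0070 (exact p = 0.99, adjusted 0.99), with 0.15 without the 2 farthest.

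Other genes around the pathway were read from lists of neighbouring functions. Of 32 further genes of β-oxidation and carnitine transport, 1 was higher in VPA_OCA livers and none lower (limma adjusted p under 0.05), and the median log2 fold change was -0.03. That gene was Acad12, an acyl-CoA dehydrogenase family member next to Acad10 in the mouse genome, at 593 ± 42.5 normalized counts in VPA_OCA livers and 358 ± 54.8 in VPA livers (SD, n = 6 each). All 6 VPA_OCA livers, at 555.9 or more, lay above all 6 VPA livers, at 450 or less. Its log2 fold change was 0.74 ± 0.10 (SE; limma adjusted p = 0.0023). With the number sets as a term, Echdc3, an enoyl-CoA hydratase-like gene, and Pecr, the peroxisomal trans-2-enoyl-CoA reductase, also passed, with limma adjusted p of 0.022 and 0.023 at log2 fold changes of 0.36 and 0.39. Nudt7, a peroxisomal CoA diphosphatase, averaged 4042 ± 381 normalized counts in VPA_OCA livers and 2815 ± 785 in VPA livers (SD, n = 6 each), and its limma adjusted p was 0.14, or 0.058 with the term. Cpt1a, which controls the entry of long-chain fatty acids into mitochondria, had a log2 fold change of -0.04.

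Of 20 further PPARα targets, Cyp4a14 and Cyp4a31, fatty acid ω-hydroxylases, were lower in VPA_OCA livers (limma adjusted p of 0.013 and 0.0044) and none was higher. Cyp4a14 averaged 7833 ± 2830 normalized counts in VPA_OCA livers and 23930 ± 7297 in VPA livers (SD, n = 6 each), a log2 fold change of -1.63, and Cyp4a31 had a log2 fold change of -1.26. Cyp4a14 and Cyp4a31 belong to a cluster of close paralogs, as do Acot1 and Acot2, and how reads were split among them is uncertain. With the number sets as a term, Acot1, a cytosolic acyl-CoA thioesterase, passed as well, at -1.47 (limma adjusted p = 0.014). None of the 15 peroxins, 24 nuclear genes of the respiratory chain and 14 PPARα partners and FXR genes tested passed in either direction by limma, and their median log2 fold changes were 0.06, 0.06 and -0.13.

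Markers of other liver cells are given for comparison. The 7 endothelial markers summed to 3414 to 4866 normalized counts in VPA_OCA livers and 3278 to 5912 in VPA livers, with a median log2 fold change of 0.10 in the replicates numbered 1 to 3 and -0.58 in those numbered 4 to 6. Over all 12 livers all 7 were below 0, with a median of -0.19. Lyve1, a receptor of sinusoidal and lymphatic endothelium, passed in the fit with the number sets that called Pex11a (limma adjusted p = 0.031), at a log2 fold change of -0.64, and it was at -0.42 in numbers 1 to 3 and -0.86 in numbers 4 to 6. Among all libraries VPA replicate 4 had the highest sum of the Kupffer cell markers. The 8 Kupffer cell markers summed to 3125 to 5627 in VPA_OCA livers and 2994 to 7813 in VPA livers, with a median log2 fold change of 0.17 in the replicates numbered 1 to 3 and -0.36 in those numbered 4 to 6. Of the 6 stellate cell markers, 5 were below 0, with a median of -0.13, and the 6 cholangiocyte markers had a median of -0.01. The 4 adipocyte markers that passed the filter had a median of -0.36, at 0.48 in numbers 1 to 3 and -1.50 in numbers 4 to 6. No stellate cell, cholangiocyte or adipocyte marker passed in either limma fit. The part of other cells in the values of the 34 genes, Pex11a included, was not tested.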

How the data were processed

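RNA was extracted with Trizol from flash-frozen liver and sequenced after TruSeq RNA library preparation, per the labels' protocols. The submitters' processing notes name edgeR and the build GRCm38.p5; the sources used here do not state the aligner, counter, annotation or strand setting, so reads of overlapping genes (exons of 12 of the 34 genes overlap another gene, 11 of them one on the opposite strand) cannot be assigned with certainty. The deposited values are normalized counts, a signal per gene and library, and FPKM, per the file headers. The authors' table also holds p-values and adjusted p-values, a length and a GC fraction per gene, per the file headers. In it, 238 p-values and 88 adjusted p-values written with a decimal comma were divided by 1000, after which recomputed adjusted values deviated by at most 0.538%.

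The filter kept 19006 genes that reached a value of 1 in 6 or more of the 12 libraries, and log2(value + 1) was fitted with limma 3.58.1 in R 4.3.3 (group as the only term, empirical Bayes with an intensity trend), with Benjamini-Hochberg adjustment and a threshold of 0.05. Fold changes on this scale understate low genes. A second fit added the set of replicate numbers (1 to 3 or 4 to 6) as a term. Scripts were tested on simulated data. Groups, replicate numbers and columns were taken from the sample titles; the labels describe 6 mice per group. The members and lists were chosen with earlier results of these data known. Members named with full values were those chosen by a rule on their role and size of change, plus Eci2 and Vnn1. No count test was run because the deposited values are normalized. Positions are those of the authors' table; promoters are RefSeq windows on GRCm38.p6. Alternatives covered scaling, filter, pseudocount, FPKM, trend, weights, number sets, the replicate block and leaving out libraries.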

Additional observations from a re-analysis of the deposited data

Results flagged for a closer look

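Among 68 groups of 6 livers (34 genes in 2 groups), 4 held a library far from its neighbours, and chance flags about 1 in 20 such groups. VPA replicate 1 was the farthest value in 3 of them: Ehhadh at 12220 normalized counts (next 9580), Etfdh at 5866 (next 4940) and Acad10 at 613.7 (next 733). Eci3 in VPA replicate 4 was the other, at 223.8 normalized counts (next 112), in the library with the highest muscle marker sum. In VPA replicate 5, with the next highest sum, Eci3 was at 54.9.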

How the results depend on the processing

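The limma fit with group alone called 0 of the 34 genes lower; the count was 1 in numbers 4 to 6 alone, 1 with the number set as a term and 3 by the adjusted p of the authors' deposited table. With that term the count of 1 lower became 2 with array weights and 3 at a threshold of 0.1, and ranged from 1 to 3 when each library was left out (3 without VPA replicate 4, 2 without VPA_OCA replicate 4); the count of 0 higher became 1 without VPA replicates 4 and 5 and ranged from 0 to 1 (Eci3, without VPA replicate 4). Over all genes, the calls with the term ranged from 82 to 160 lower and from 148 to 286 higher when each library was left out. The counts over all genes with array weights, at a threshold of 0.1 and without VPA replicates 4 and 5 are not given here. Without the intensity trend, 53 lower over all genes became 26, and with the term 150 lower and 254 higher became 63 and 125.

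Deviations from the group means correlated between same-numbered livers at 0.343, 0.0838, 0.217, 0.133, 0.309 and 0.304, and 2 of 6 numbers matched best. The number sets were not removed first, so these values cannot settle whether replicate numbers pair the livers. A replicate block called 1 gene lower (Pex11a, limma adjusted p = 0.012) and, over all genes, 129 higher and 81 lower.

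The log2 fold change of Ppara changed sign in numbers 1 to 3 alone (0.030) and ranged from -0.12 to 0.0048 over left-out libraries. Acad10 changed sign in numbers 4 to 6 alone (-0.066). Of the 23 genes given without full values, 11 changed sign in at least 1 of 25 settings (Fabp1, Acads, Echs1, Decr1, Etfa, Etfb, Acox2, Scp2, Phyh, Abcd2 and Abcd3) and 0 were called in any by limma. The r of Acadm with Ehhadh was -0.28 on FPKM and -0.37 to 0.23 over left-out libraries, and that of Ppara with Ehhadh -0.082 to 0.66, Ppara with Vnn1 0.061 to 0.55 and Etfa with Etfb 0.077 to 0.74. For Acaa1a with Acaa1b, r was 0.76 on FPKM, 0.67 without VPA replicates 4 and 5, and 0.70 to 0.86 over left-out libraries. The causes were not tested. The median of the mitochondrial enzymes ranged from -0.20 to -0.06 and that of the peroxisomal enzymes from -0.09 to 0.0062 over left-out libraries, and the number of genes below 0 from 21 to 28. Eci3 was the gene with the lowest counts.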
